A study of Mus musculus with 6 samples.

Results

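The transcripts described here encode the abundant granule and cytosolic proteins of neutrophils: *S100a8*, *S100a9*, *Camp*, *Ngp*, *Ltf*, *Lcn2*, *Retnlg*, *Mmp8*, *Mmp9* and *Wfdc21*, 10 of the 32285 genes in the count matrices, taken by symbol. They were followed in scRNA-seq of myeloid cells of the whole brain, from 3 male C57BL/6J mice at postnatal day 89. Each perfused brain was dissociated by cold Dounce homogenization, and live cells positive for both CD45 and CD11b were sorted, a gate that microglia and neutrophils both pass. Mouse 2 was processed with transcription and translation inhibitors (DNC-INHIB) and mice 1 and 3 without them (DNC-NONE), so an effect of the inhibitors and a difference of mouse 2 cannot be told apart. Every mouse gave 1 library with the 10X 3′ V3.0 kit and 1 with the V3.1 kit, so there are 6 libraries, 3 per kit.

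Neutrophils are short-lived granulocytes made in the bone marrow. While they mature they fill several kinds of granules in sequence, first azurophil granules with myeloperoxidase and elastase, then specific granules with lactoferrin and cathelicidin, then gelatinase granules with MMP9, and the transcripts of each kind are known to be made mainly at the stage when that granule forms. S100A8 and S100A9 pair to form calprotectin, a calcium- and zinc-binding protein of the neutrophil cytosol. In a healthy brain neutrophils are found mainly in blood vessels, the meninges and the skull marrow, and microglia are not known as a source of granule proteins.

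Neutrophils were barcodes with at least 300 UMIs (unique molecular identifiers, each standing for 1 captured molecule) of *S100a8* and *S100a9* together and with a UMI for at most 3 of 12 microglial markers. The rule found 469 neutrophils among 29412 barcodes. The V3.0 libraries of mice 1, 2 and 3 held 95, 61 and 55 of them, and the V3.1 libraries 88, 75 and 95. Because *S100a8* and *S100a9* chose these cells, their neutrophil levels are given as a description only. The neutrophil with the fewest had 300 UMIs of the 2 genes and the barcode nearest below the limit had 298, with 23 neutrophils between 300 and 349 and 34 barcodes between 250 and 299, so the limit runs through a continuous range. Another 63 barcodes passed the S100 limit but had more than 3 microglial markers, and were left out. The comparison cells were 18742 microglia with at least 6 of the 12 markers and fewer than 300 UMIs of *S100a8* and *S100a9*.

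Libraries held between 6275898 and 18872816 UMIs. The V3.0 library of mouse 3 stood apart: 21.5% of its barcodes passed a filter on genes, UMIs and mitochondrial share, against 70.0% to 76.8% in the others. Its neutrophils had a median of 1419 UMIs, against 3903 to 4539 elsewhere, and microglial markers summed to 711 CPM in them (UMIs of a gene per 1000000 UMIs of the cell class in that library), against 137 to 250 in the other libraries and at least 28222 in microglia. Across libraries 98 barcode sequences occurred more than once (0.666% of barcodes), and 1 of them was a neutrophil in more than 1 library.

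The label was checked against 12 neutrophil markers that the rule did not use. All 12 were detected, at a summed level of 5340 to 6466 CPM in neutrophils and 188 to 262 CPM in microglia. Most of the microglial sum was *Csf3r*, at a mean of 179 CPM and in 44.6% of microglia, against 313 CPM in neutrophils. *Slpi*, a leukocyte protease inhibitor, had 1973 ± 344 CPM (SD, n = 6 libraries), the surface marker *Ly6g* 899 ± 176, *Mxd1* 767 ± 112 and the chemokine receptor *Cxcr2* 585 ± 94.0. Of 7 monocyte markers, 5 were detected, at a sum of 774 to 968 CPM in neutrophils and 13.5 to 19.7 CPM in microglia. *Ly6c2* was the most abundant at 698 ± 84.4 CPM, then *Plac8* at 122 ± 33.4 and *Itga4* at 34.4 ± 12.4, whereas *Ccr2* and *Vcan* had 0 UMIs. B cell markers summed to 58.2 to 101 CPM in neutrophils and 306 to 372 CPM in microglia. Of 7 border macrophage markers, 3 were detected, at a sum of 2.18 to 14.2 CPM. T and NK cell markers summed to 17.1 to 105 CPM, with *Cd3e* and *Trbc2* at 0 UMIs. Neuronal genes had 0 UMIs, and of 6 oligodendrocyte and astrocyte genes *Cst3*, which microglia also express strongly, was the most abundant, with 1220 ± 749 CPM. The defining neutrophil markers were thus present, and the part that residual RNA of other cells played was not tested.

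The 10 transcripts made up 48.2% to 49.9% of all neutrophil UMIs. *S100a8* and *S100a9* (chromosome 3, GRCm38, 90668978 to 90670035 on the plus strand and 90692632 to 90695721 on the minus strand, with 22596 bases between them) took 37.9% to 39.7% together. *S100a8* had 184300 ± 5117 CPM (SD, n = 6 libraries) and *S100a9* 202205 ± 3319 CPM, a narrow range in all 6 libraries, including the shallow one. UMIs count captured 3′ ends and are not divided by transcript length, so the CPM of different genes are compared only as shares of captured molecules.

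Among the specific granule transcripts, *Camp* (the antimicrobial peptide cathelicidin; chromosome 9, 109847379 to 109849617, minus strand) had 25428, 25540 and 25131 CPM in the V3.0 libraries of mice 1, 2 and 3. In the V3.1 libraries it had 23357, 30131 and 35866 CPM in the same order. The V3.0 libraries lay close together and the V3.1 libraries lay on both sides of them. *Ngp* (neutrophilic granule protein; chromosome 9, 110419747 to 110423012, plus strand) had 22005 to 29561 CPM. *Ltf* (the iron-binding protein lactoferrin; chromosome 9, 111019271 to 111042767, plus strand) had 4827, 6601 and 4668 CPM with V3.0 and 5416, 8119 and 6582 CPM with V3.1, with mouse 2 highest in both kits. *Lcn2* (lipocalin 2, which binds bacterial siderophores; chromosome 2, 32384633 to 32388252, minus strand) had 8846 to 12520 CPM.

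*Retnlg*, *Mmp8* and *Mmp9* are described next as a group, which does not stand for 1 kind of granule. *Retnlg* encodes resistin-like gamma, a secreted protein of mature neutrophils (chromosome 16, 48872621 to 48874496, plus strand). Among these transcripts *Retnlg* varied most between libraries relative to its mean. It had 24393, 16525 and 22140 CPM in the V3.0 libraries of mice 1, 2 and 3, and 32234, 15005 and 19665 CPM in the V3.1 libraries. Mouse 2 was lowest in both kits. The collagenase *Mmp8* (chromosome 9, 7558456 to 7568485, plus strand) had 2409 to 3261 CPM. The gelatinase *Mmp9* (chromosome 2, 164940780 to 164955850, plus strand) had 1949.9, 1846 and 1669.7 CPM with V3.0 and 1671, 1226 and 1450.2 CPM with V3.1, with the V3.1 library below the V3.0 library of the same mouse in all 3 mice.

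*Wfdc21*, which encodes a small secreted protein with a whey acidic protein domain (chromosome 11, 83746940 to 83752642, plus strand), is placed in neither of these groups here. It was the steadiest of the members that did not choose the cells, at 6001 ± 316 CPM.

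**Figure D1:**
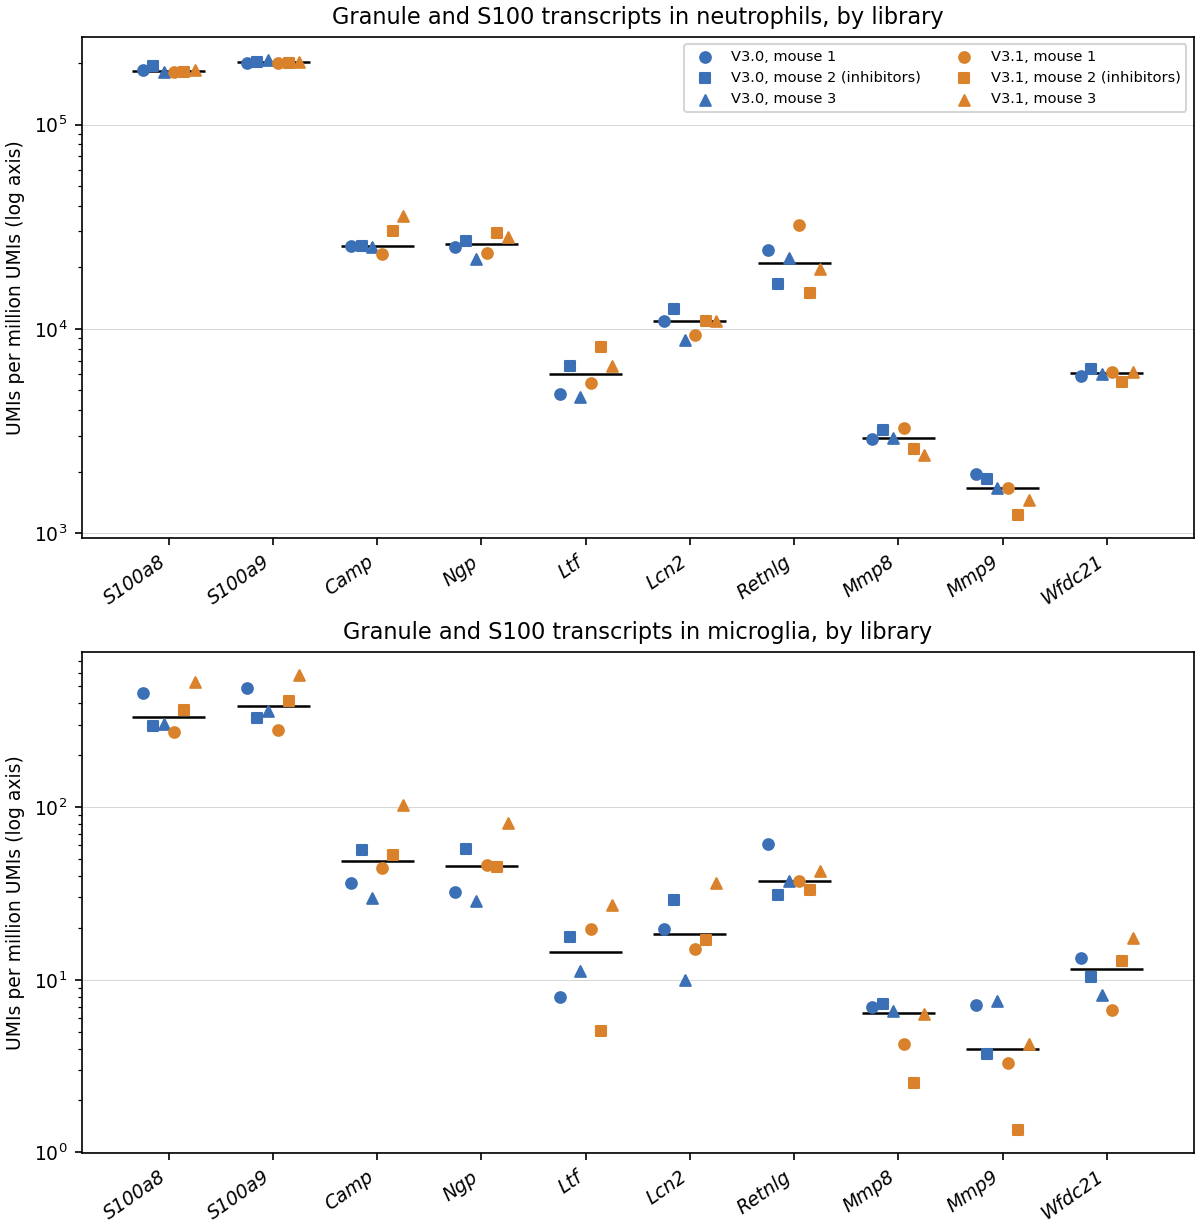
Level of the 10 transcripts in each library, in CPM of the cell class on a log axis, in neutrophils (top) and microglia (bottom). Dots are libraries, coloured by kit and shaped by mouse, and black bars are medians of the 6 libraries, from 208212 CPM for *S100a9* in neutrophils of mouse 3 with V3.0 down to 1.35 CPM for *Mmp9* in microglia of mouse 2 with V3.1.

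The transcripts differed in how many neutrophils held them. *S100a8* and *S100a9* were in all 469 by the rule. A UMI of *Wfdc21* was found in 97.0% of neutrophils, of *Lcn2* in 94.9%, of *Mmp9* in 94.0%, of *Retnlg* in 90.0% and of *Mmp8* in 84.0%. *Ngp* was found in 76.8%, *Camp* in 68.7% and *Ltf* in 51.6%. *Camp* thus had a higher mean level than *Mmp9* or *Mmp8* but a UMI in fewer cells. In microglia, with a median of 3500 UMIs against 4051 in neutrophils, *Camp* was found in 14.8% and *Mmp9* in 0.742% of cells. With each cell thinned to 1000 UMIs, which left out 10 neutrophils, the library values ran from 53.2% to 74.8% for *Camp*, 37.2% to 67.6% for *Ltf*, 69.8% to 81.9% for *Mmp9* and 71.4% to 91.0% for *Retnlg*. At the same depth microglia had 1.74% to 9.38% for *Camp*.

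Within neutrophils the members fell into groups that varied together from cell to cell. The measure is Pearson's r of log(1 + UMIs per 10000 UMIs outside the 10 members) over the 469 cells, centred within each library. Cells of 1 library share its depth and mouse, so r is given as a description. *Camp* and *Ltf* had r = 0.92 (0.90 to 0.95 within single libraries), *Camp* and *Ngp* 0.91 and *Ngp* and *Ltf* 0.87. *Lcn2* went with them, with 0.78 to *Ngp*. *Retnlg*, *Mmp8* and *Mmp9* formed a second group, with 0.67 between *Retnlg* and *Mmp8*, 0.63 between *Mmp8* and *Mmp9* and 0.59 between *Retnlg* and *Mmp9*. Across the groups *Retnlg* had −0.59 with *Ltf* and −0.56 with *Camp*, negative in each of the 6 libraries, while *Mmp8* and *Mmp9* had values near 0 with *Camp* (−0.12 and −0.17). *S100a8* and *S100a9*, which chose the cells, had 0.94 with each other, and *Wfdc21* had 0.73 with *S100a8*, 0.67 with *Ngp*, 0.61 with *Camp* and −0.16 with *Retnlg*.

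**Figure D2:**
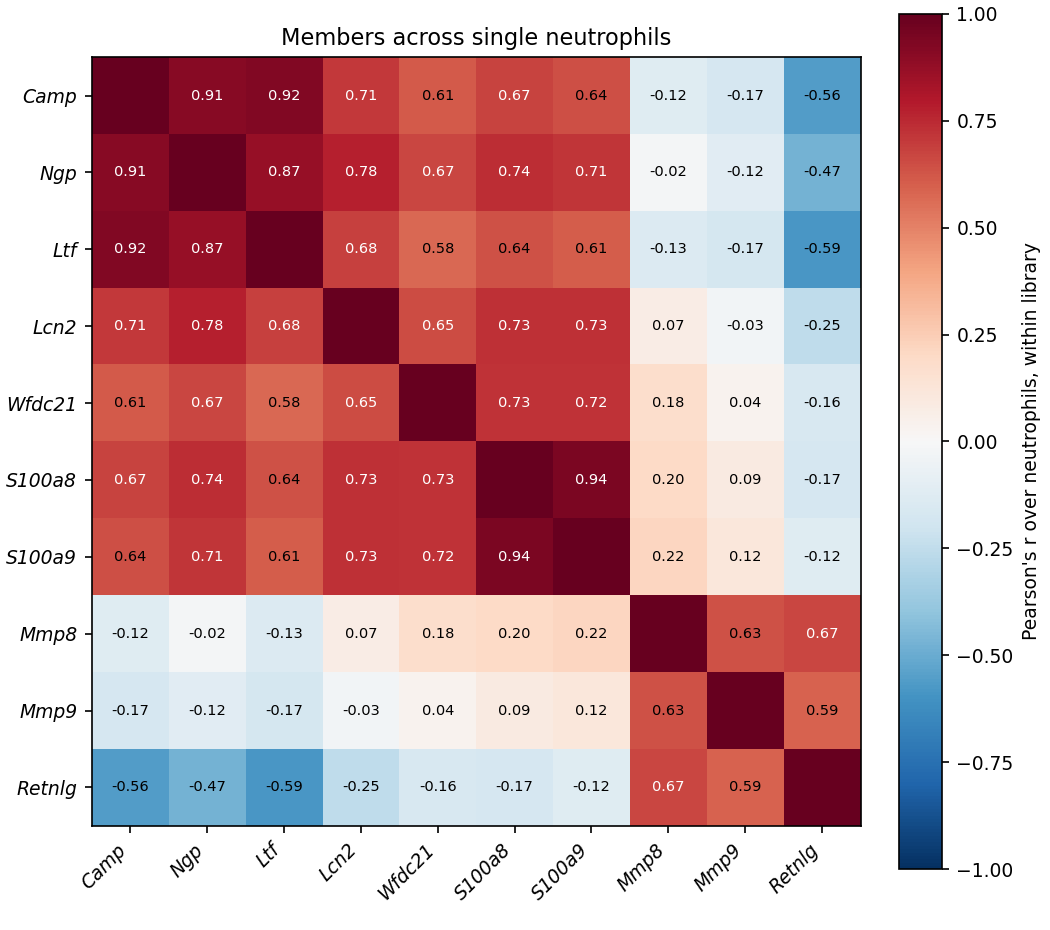
Pearson's r between each pair of the 10 transcripts over 469 neutrophils, after centring log values within each library (colour scale from negative to positive r). *Camp*, *Ngp* and *Ltf* form a block at 0.87 to 0.92, *Retnlg*, *Mmp8* and *Mmp9* a block at 0.59 to 0.67, and *Retnlg* against *Ltf* is the lowest cell at −0.59.

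Promoters of 5 members are shown because they come from these groups, *Camp*, *Ngp* and *Ltf* from the first and *Retnlg* and *Mmp8* from the second. Each is the 250 bases before the RefSeq start on GRCm38.p6, printed 5′ to 3′ on the strand of the gene. For *Camp*, *Ngp* and *Ltf* the RefSeq start lies inside the gene span given above, so these stretches overlap the span in part. That of *S100a8* also overlaps its span in part, and that of *Lcn2* lies wholly inside its span. RefSeq promoters were matched for 8 of the 10 members, not for *Mmp9* and *Wfdc21*. Capitals mark each match to TTNNGNAA or its other strand TTNCNNAA, a short form of the site of C/EBP factors, which act in granulocyte maturation. 
Camp, chr9:109849457-109849706, minus strand: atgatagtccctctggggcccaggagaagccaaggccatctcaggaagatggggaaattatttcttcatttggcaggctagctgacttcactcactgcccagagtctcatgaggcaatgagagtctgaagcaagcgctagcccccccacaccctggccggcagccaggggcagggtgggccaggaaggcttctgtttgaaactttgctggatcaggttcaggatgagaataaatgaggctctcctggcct
Ngp, chr9:110419558-110419807, plus strand: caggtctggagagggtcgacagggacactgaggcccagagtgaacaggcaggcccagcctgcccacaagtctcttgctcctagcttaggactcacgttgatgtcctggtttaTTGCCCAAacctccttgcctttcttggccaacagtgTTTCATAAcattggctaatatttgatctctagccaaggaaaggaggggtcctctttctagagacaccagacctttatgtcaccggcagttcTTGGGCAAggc
Ltf, chr9:111019042-111019291, plus strand: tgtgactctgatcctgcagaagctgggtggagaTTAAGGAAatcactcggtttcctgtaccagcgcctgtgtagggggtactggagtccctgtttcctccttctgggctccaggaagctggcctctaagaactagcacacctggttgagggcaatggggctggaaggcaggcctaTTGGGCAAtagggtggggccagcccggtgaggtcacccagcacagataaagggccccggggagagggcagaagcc
Retnlg, chr16:48872358-48872607, plus strand: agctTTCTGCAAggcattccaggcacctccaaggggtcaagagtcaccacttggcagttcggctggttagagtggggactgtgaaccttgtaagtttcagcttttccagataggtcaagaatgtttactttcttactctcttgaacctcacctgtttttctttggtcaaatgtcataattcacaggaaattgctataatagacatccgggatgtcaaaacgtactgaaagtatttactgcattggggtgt
Mmp8, chr9:7558179-7558428, plus strand: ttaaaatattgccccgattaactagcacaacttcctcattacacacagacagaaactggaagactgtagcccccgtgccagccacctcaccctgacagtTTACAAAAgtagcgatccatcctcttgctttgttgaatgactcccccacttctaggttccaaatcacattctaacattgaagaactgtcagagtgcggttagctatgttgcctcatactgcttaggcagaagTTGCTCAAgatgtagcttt

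The motif was matched 3 times in the promoter of *Ngp*, 2 times in those of *Ltf*, *Mmp8* and *S100a9*, 1 time in those of *S100a8*, *Lcn2* and *Retnlg* and 0 times in that of *Camp*. Of 32851 promoters of the same length, 36.8% hold it, so a match is common. GAGGAA or its other strand TTCCTC, the core of a PU.1 site, was matched 2 times for *S100a8* and 1 time each for *Ltf*, *Lcn2* and *Mmp8* (23.3% of all promoters), and TATAAA or TTTATA was matched for *S100a8* alone among the 8 (12.4%). These matches are descriptions of letters and not of binding, and they did not separate the 2 groups of transcripts.

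Genes outside the members were compared with each group among 3244 genes that had a UMI in at least 10% of neutrophils. The genes most like the sum of *Camp*, *Ngp* and *Ltf* were *Chil3* (r = 0.81), a chitinase-like protein of granules, *Cybb* (0.77), a subunit of the NADPH oxidase, *Ifitm6* (0.76), *Serpinb1a* (0.76), an inhibitor of neutrophil proteases, and *Anxa1* (0.75). The genes most like the sum of *Retnlg*, *Mmp8* and *Mmp9* were *S100a11* (0.69), *S100a6* (0.65), *Cxcr2* (0.61), *Tmcc1* (0.58) and *Prr13* (0.57). The first set included granule and oxidase genes, and the second included other S100 genes and a chemokine receptor.

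The share of a cell's UMIs held by *Camp*, *Ngp* and *Ltf* together ran from 0 in 88 neutrophils to 18.6%. At least 1% was reached by 229 of 469 neutrophils (48.8%, exact 95% interval 44.2% to 53.5%). This limit was chosen after the values were seen, it marks a range and not a cell type, and 43 cells lay between 0.5% and 2%. The share of neutrophils from 1% was 40%, 52.5% and 70.9% in the V3.0 libraries of mice 1, 2 and 3 and 40.9%, 53.3% and 46.3% in the V3.1 libraries. It was highest in the shallow library. Neutrophils from 1% had a median of 6649 UMIs and the others 3030.5, an order that was reversed with V3.0 in mouse 3 (1208 and 3746).

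The 7 members that did not set this range each lay in 1 direction in 6 of 6 libraries. *Lcn2* had a median over libraries of 13707 CPM in neutrophils from 1% and 3956 CPM below it, and *Wfdc21* 7148 and 3843 CPM. *S100a8* had 195448 and 163931 CPM, and *S100a9* 211167 and 183970 CPM. *Retnlg* lay the other way, with 8145 CPM from 1% (5782 to 16273) and 44150 CPM below it (35140 to 55526). The library values of the 2 sides did not overlap for *Retnlg*, nor for *Lcn2*, *Wfdc21*, *S100a8*, *S100a9* or *Mmp9*, while those of *Mmp8* did. No count over all genes is set beside these counts, so they are not read as a trait of the members. *Mmp8* had 2466 against 3384 CPM and *Mmp9* 1423 against 2045 CPM, smaller differences, and for *Mmp8* in mouse 1 with V3.1 the values were 3253 and 3272 CPM. The cells were split on their own counts, so these values carry no test, and a share of UMIs taken by some genes lowers the share left for the rest.

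**Figure D3:**
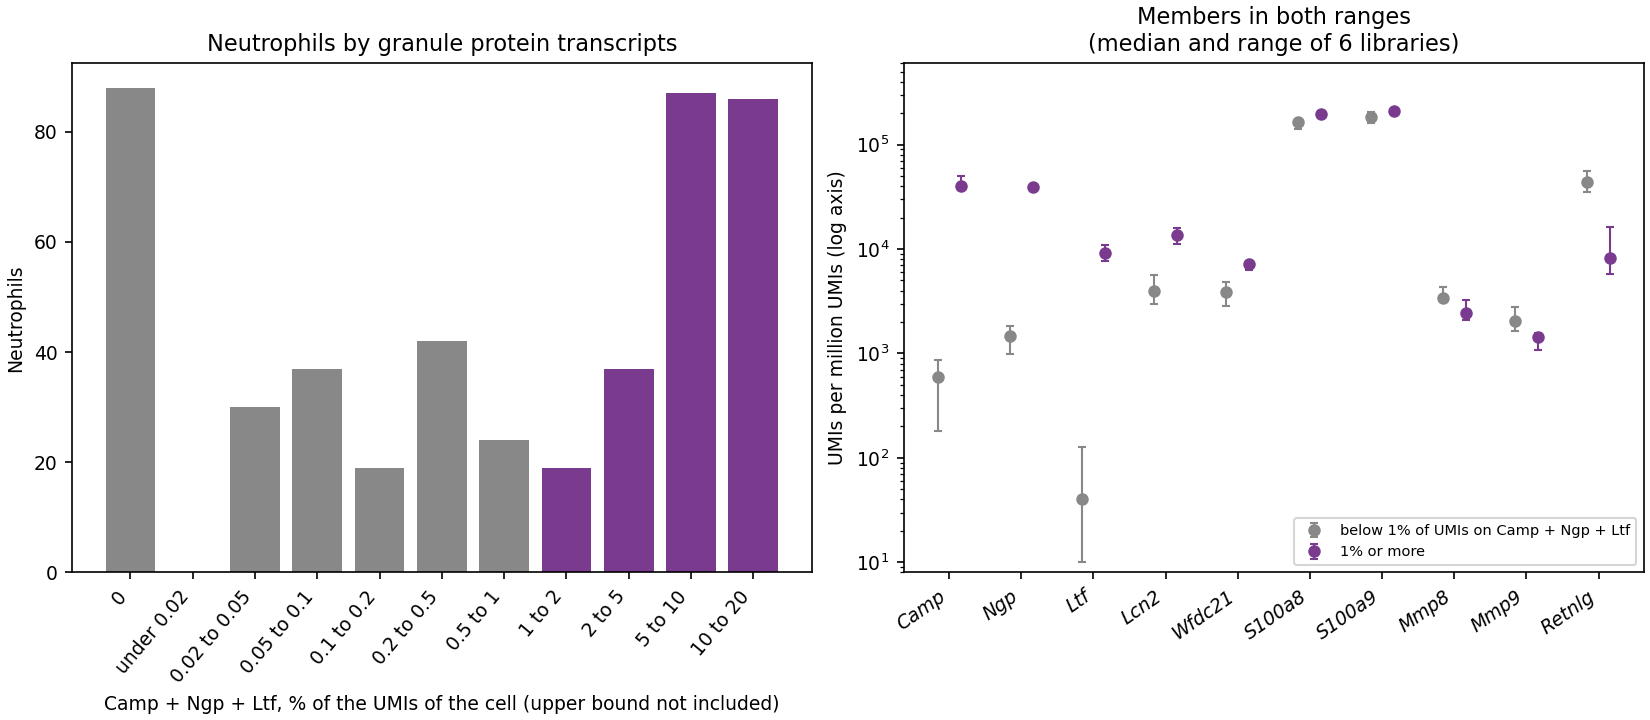
Left: number of neutrophils by the percent of their UMIs that *Camp*, *Ngp* and *Ltf* make up, with the upper bound of each bin not included, and 88 cells at 0. Right: median (dot) and lowest to highest of the 6 libraries (bar) of each transcript in CPM on a log axis, in neutrophils from 1% and below 1%; the bar of *Ltf* below 1% is drawn to 10 because its lowest library is at 0, and *Retnlg* is higher below 1% (44150 against 8145 CPM).

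Other genes of granulocyte maturation were read from lists in the same 2 ranges. The split used *Camp*, *Ngp* and *Ltf*, and no count over all genes is set beside the list counts, so they are descriptions. Of 15 other specific and tertiary granule genes, 11 were higher from 1% in 6 of 6 libraries and 3 were lower. *Chil3* had a median of 3714 against 14.6 CPM, *Anxa1* 3952 against 1256 and *Ifitm6* 2330 against 711 CPM. These genes were among those most correlated with the same sum, so their direction was given in advance. *Pglyrp1*, which binds bacterial cell walls, had 3419 against 2873 CPM. The 3 that were lower were *Hp* (haptoglobin; 1359 against 1921 CPM), *Slc11a1* and *Arg2*. Of 6 azurophil granule genes, *Ms4a3* was higher in 6 of 6 libraries at a median of 12.6 CPM (27 UMIs in all), while *Mpo* (myeloperoxidase), *Elane* (elastase), *Ctsg* and *Bpi* had 0 UMIs in all 469 neutrophils. Of 12 neutrophil markers outside the rule, 10 were lower from 1% in 6 of 6 libraries, among them *Slpi* (1091 against 3535 CPM), *Mxd1* (523 against 1252) and *Cxcr2* (235 against 1239), and *Ly6g* was higher (948 against 646 CPM).

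Among 8 transcription factors of granulocytes, *Cebpe*, which is needed for specific granules, was higher from 1% in 6 of 6 libraries (423 against 63.7 CPM), and *Cebpb* (126 against 789), *Cebpd* (365 against 679) and *Spi1*, which encodes PU.1 (405 against 701 CPM), were lower. Of 7 other S100 genes, *S100a6* (4351 against 15781 CPM) and *S100a11* (2756 against 7488 CPM) were lower and *S100a13* (223 against 105 CPM) was higher. The most abundant S100 genes outside the members thus lay opposite to *S100a8* and *S100a9*.

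The cell cycle genes *Mki67*, *Top2a*, *Birc5*, *Ccnb2* and *Cdk1* had 0 UMIs in neutrophils below 1%. At least 3 UMIs of these 5 genes, a limit also chosen after the values were seen, were found in 16 neutrophils, 4, 0 and 4 in the V3.0 libraries of mice 1, 2 and 3 and 2, 2 and 4 in the V3.1 libraries, and all 16 lay in the range from 1%. In them *Camp* had 65150 CPM and *Ngp* 52316 CPM, *Retnlg* 40.3 CPM from 8 UMIs, *Mmp8* 10.1 CPM from 2 UMIs and *Mmp9* 80.6 CPM from 16 UMIs. These 16 cells were deep, with a median of 13253.5 UMIs. Doublets were not called, and their part in these cells was not tested.

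Genes whose products bind or inhibit the members' products were few in neutrophils. Of 10 such genes 7 were detected, at a sum of 450 to 591 CPM. *Fpr2*, a formyl peptide receptor that also binds the cathelicidin peptide, had 324 ± 31.5 CPM (SD, n = 6 libraries), and *Timp2*, an inhibitor of metalloproteinases, 158 ± 25 CPM. *Tlr4*, a receptor for S100A8 and S100A9, had 13.9 ± 5.82 CPM and its coreceptor *Cd14* 6.36 ± 5.47 CPM. *Timp1*, *Timp3* and *Serpina3n* had 0 UMIs.

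The first comparison asked whether the kit changed the levels. In neutrophils, UMIs were summed per library and V3.1 was set against V3.0 with edgeR's quasi-likelihood test. A gene was called where its log2 fold change was above 0.58 in size and its Benjamini-Hochberg adjusted p was under 0.05. None of the 10 members was called, where 14 of 3304 genes tested were (0.424%), and at an unadjusted p below 0.05, 280 genes passed by edgeR. *Mmp9* had the lowest value at −0.37 (SE 0.14, edgeR adjusted p = 0.420), lower with V3.1 in 3 of 3 mice, and it was the only member with an unadjusted p below 0.05. *Ltf* had the highest value at 0.27 (SE 0.15, adjusted p = 0.647), higher with V3.1 in 3 of 3 mice. *Camp* had 0.19, *Ngp* 0.10, *Retnlg* 0.05, *Lcn2* −0.09 and *Mmp8* −0.17. The median over members was −0.07, and 0.0079 over all genes tested. No member was called by edgeR or DESeq2 under any of 14 alternatives, and no gene of the other lists was called by edgeR.

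The neutrophil share of barcodes was 2.07%, 1.08% and 1.25% in the V3.0 libraries of mice 1, 2 and 3, with exact 95% intervals of 1.68% to 2.52%, 0.83% to 1.39% and 0.943% to 1.62%. It was 2.39%, 1.51% and 1.55% in the V3.1 libraries, with intervals of 1.92% to 2.93%, 1.19% to 1.89% and 1.26% to 1.89%. Mouse 1 was highest in both kits, and the V3.1 library was higher in each mouse. The means were 1.82% ± 0.494 (SD, n = 3) with V3.1 and 1.47% ± 0.528 (SD, n = 3) with V3.0, a difference of 0.349 percentage points (two-sided exact permutation test over libraries, p = 0.50, smallest possible 0.10). It was positive in 3 of 3 mice, and an exact test that flips signs within mice gave p = 0.25, the smallest it allows. The difference turned to −0.808 points over barcodes that passed the filter or were neutrophils. There the neutrophils were not filtered, and the V3.0 library of mouse 3 reached 5.56%. With only neutrophils that passed the filter, over all barcodes, the difference was 0.379 points. It turned to −0.201 points with a limit of 100 UMIs, and it was 0.240 points without the V3.0 library of mouse 3.

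The second comparison asked whether the inhibitors changed the levels. Both kits were summed per mouse, and the spread comes from the 2 DNC-NONE mice, with mouse 2 assumed to vary like them. In neutrophils 1 of 10 members was called, where 14 of 4982 genes tested were (0.281%). *Retnlg* had 28160 CPM in mouse 1, 15644 CPM in mouse 2 and 20157 CPM in mouse 3. The inhibitor mouse was lowest, at a log2 fold change of −0.68 (SE 0.15, edgeR adjusted p = 0.00144). The size rests much on mouse 1: the fold was −0.37 without it and −0.85 without mouse 3. Within kits it was −0.47 with V3.0 (adjusted p = 9.80e-07, under the fold threshold) and −0.89 with V3.1 (adjusted p = 0.0412). The call was lost with DESeq2 (−0.67, adjusted p = 1.00), and it was kept in 7 of 11 alternatives, with edgeR and DESeq2 folds from −0.89 to −0.40.

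The share of neutrophils with at least 1% of *Camp*, *Ngp* and *Ltf* moved with this result in part, being higher in mouse 2 (52.5% and 53.3%) than in mouse 1 (40% and 40.9%) and lying on both sides of mouse 3 (70.9% and 46.3%). Below 1%, *Retnlg* had 35140 and 37789 CPM in mouse 2 and 43104 to 55526 CPM in the other 4 libraries, so mouse 2 was lowest in that range too. From 1%, mouse 2 had 7963 and 7281 CPM and the others 5782 to 16273 CPM, which overlap. The part of the makeup of the neutrophils in the fold was not tested.

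The other members did not pass in this comparison. *Ltf* had 5110.0, 7481 and 6201 CPM in mice 1, 2 and 3 and the highest value, 0.35 (SE 0.14, adjusted p = 0.708 by edgeR). *Mmp9* had −0.21, *Camp* −0.10, *Ngp* 0.09, *Lcn2* 0.11 and *Mmp8* −0.03. The median over members was −0.05, and −0.02 over all genes tested. Of the other lists, *Stfa2l1*, a stefin that inhibits cysteine proteases and one of the 12 neutrophil markers, was called at −0.98 (SE 0.19, edgeR adjusted p = 0.000184). Of its UMIs, 44 were in neutrophils from 1% and 919 in those below, the side on which *Retnlg* was higher too.

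In microglia all 10 transcripts were counted at low levels. *S100a8* had 456, 293 and 302 CPM in the V3.0 libraries of mice 1, 2 and 3 and 271, 366 and 528 CPM in the V3.1 libraries. *S100a9* had 281 to 585 CPM. *Camp* had 36.4, 56.2 and 29.7 CPM with V3.0 and 44.2, 53.1 and 103 CPM with V3.1. Mouse 3 with V3.1 was highest for both genes. *Ngp* had 28.4 to 81.2 CPM, *Retnlg* 30.9 to 61.0, *Lcn2* 10.00 to 36.5, *Ltf* 5.05 to 27.1, *Wfdc21* 6.66 to 17.4, *Mmp8* 2.53 to 7.26 and *Mmp9* 1.35 to 7.50 CPM. By the mean over libraries, the order of the 10 levels was the same as in neutrophils, from *S100a9*, *S100a8*, *Camp*, *Ngp*, *Retnlg*, *Lcn2*, *Ltf* and *Wfdc21* to *Mmp8* and *Mmp9*. In both classes the means of the neighbours *Camp* and *Ngp* differed by less than their SD, as did those of *Ltf* and *Wfdc21*.

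A UMI of *S100a8* was found in 56.1% to 80.5% of microglia by library, and in 38.8% to 62.8% with each cell thinned to 2000 UMIs (756 cells left out). The share was also read in cells of other classes: 56.5% of 23 T and NK cells (median 3691 UMIs, against 3500 in microglia) and 69.6% of 46 border macrophages (median 5149 UMIs) held a UMI of *S100a8*. In all microglia together the share was 69.4%. The pooled *S100a8* level was 390.4 CPM in microglia (Poisson interval 386 to 395), 286 CPM in border macrophages (222 to 362), 283 CPM in monocytes (242 to 329) and 251 CPM in T and NK cells (157 to 380). The pooled microglial *S100a8* level lay above the intervals of all 3 other classes. The microglial share of cells with a UMI did not lie above that of border macrophages. Pooled levels weight each library by its UMIs of the class, and by library the levels overlapped. *S100a8* had 271 to 528 CPM in microglia, 51.2 to 493 in border macrophages, 133 to 467 in monocytes and 0 to 544 CPM in T and NK cells. *S100a9* had 430.1 CPM in microglia (425 to 435), 290.0 CPM in border macrophages (226 to 366), 176 CPM in monocytes (144 to 213) and 502 CPM in T and NK cells (364 to 673). The pooled microglial *S100a9* level thus lay above border macrophages and monocytes and within the interval of T and NK cells. Intervals cover counting error only. Free RNA was not measured in empty droplets, and its part in these counts was not tested.

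As a percent of the neutrophil level, the microglial level was alike for transcripts of very different abundance. For *S100a8* it was 0.246%, 0.151% and 0.167% in the V3.0 libraries of mice 1, 2 and 3 and 0.150%, 0.203% and 0.285% in the V3.1 libraries. For *Camp* it was 0.143%, 0.220% and 0.118%, then 0.189%, 0.176% and 0.287%. The median over the 10 members was 0.234%, 0.207% and 0.168% with V3.0 and 0.155%, 0.167% and 0.287% with V3.1. With each member's median over the 6 libraries taken first, the median over members was 0.192%. In the V3.1 library of mouse 3, 7 of the members lay between 0.264% and 0.291%. *S100a8* and *S100a9* kept nearly the same ratio to each other in both cell classes, 0.869 to 0.954 in neutrophils and 0.839 to 0.966 in microglia. *Ngp* over *Camp* ran from 0.787 to 1.05 in neutrophils and from 0.788 to 1.05 in microglia. *Camp* over *Retnlg* was less alike. In mouse 1 it was 1.04 in neutrophils and 0.596 in microglia with V3.0, and 0.725 and 1.18 with V3.1. In mouse 3 with V3.1 it was 1.82 and 2.41.

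The less abundant transcripts departed from this common ratio more. *Ltf* ran from 0.0622% to 0.412% and *Mmp9* from 0.110% to 0.449%. Single barcodes carried much of these counts: in the V3.0 library of mouse 3, 1 microglial barcode held 80.6% of the 36 *Ltf* UMIs, and in the V3.0 library of mouse 2, 1 barcode held 442 of 806 *Ngp* UMIs. With microglia limited to fewer than 20 UMIs of *S100a8* and *S100a9*, which removed between 1 and 9 barcodes per library, *Ltf* ran from 0.0404% to 0.213% and the median over members from 0.0635% to 0.252%, while *S100a8* hardly moved (0.133% to 0.278%). With that limit *S100a8* and *S100a9* lay above the other 8 in each V3.0 library, so a single common ratio held less well there. The V3.1 library of mouse 1 had the highest neutrophil share of barcodes (2.39%) and the lowest *S100a8* in microglia (271 CPM). The other V3.1 libraries had 1.51% and 366 CPM (mouse 2) and 1.55% and 528 CPM (mouse 3). The V3.0 libraries of mice 1, 2 and 3 had 2.07%, 1.08% and 1.25%, with 456, 293 and 302 CPM. Over the 6 libraries a higher share thus did not regularly go with a higher level, and the relation was not tested.

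**Figure D4:**
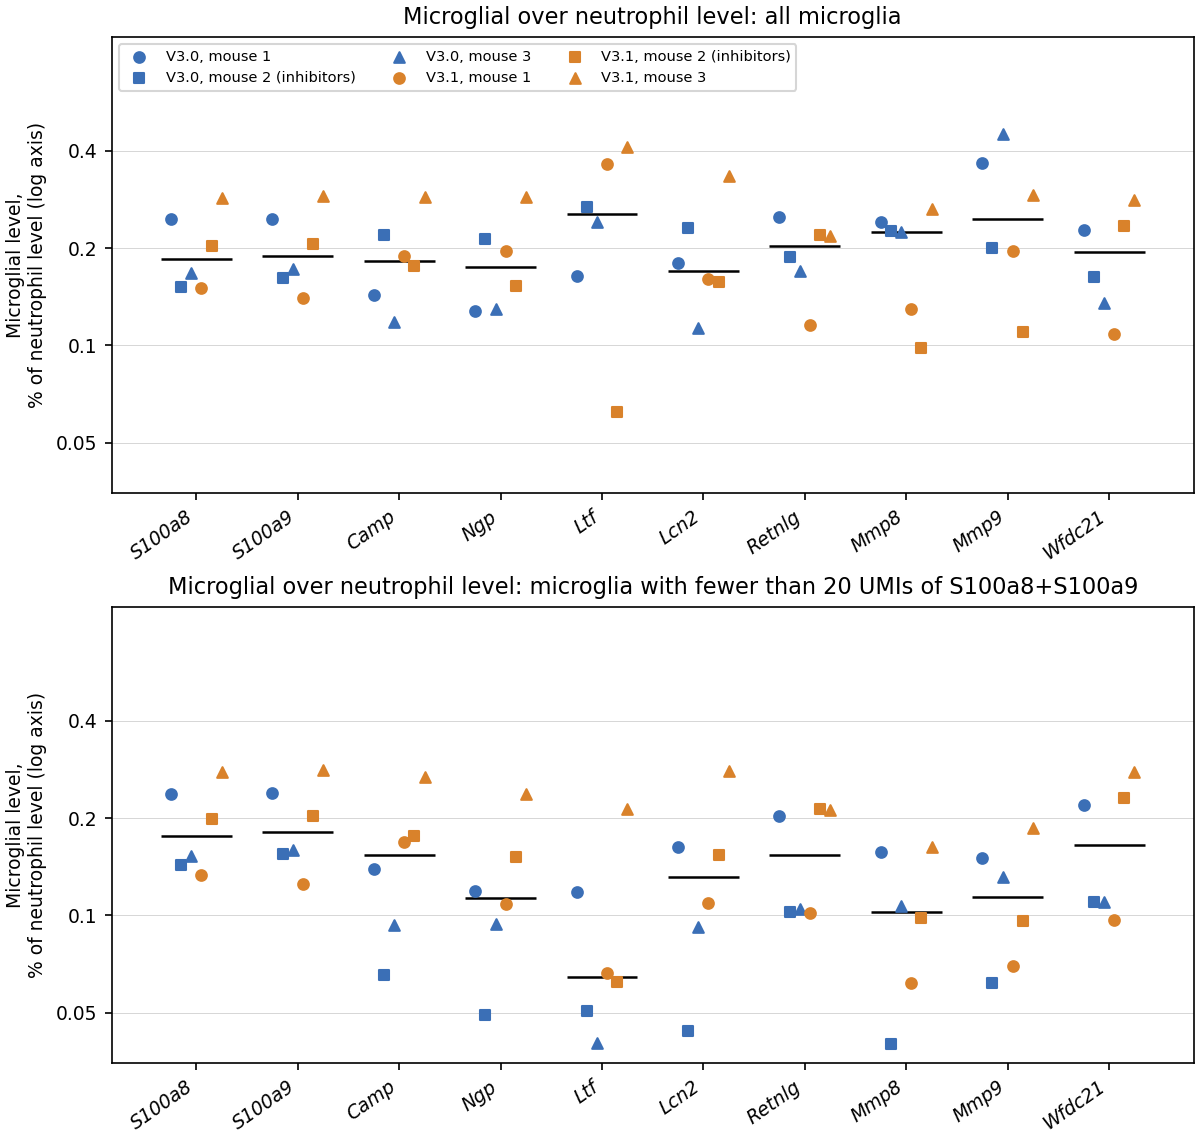
Level in microglia as a percent of the level in neutrophils of the same library for each transcript, with dots for libraries and bars for medians, for all microglia (top) and for microglia with fewer than 20 UMIs of *S100a8* and *S100a9* (bottom). In the top panel most dots lie between 0.1% and 0.3%, and in the bottom panel *Ltf* and *Mmp8* sit lower than *S100a8* and *S100a9*.

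The kit comparison was repeated on microglia. None of the members was called, where 360 of 12018 genes were (3.00%, and 3516 at an unadjusted p below 0.05 by edgeR). *Mmp9* had −0.91 (SE 0.35, edgeR adjusted p = 0.0999) and *Mmp8* −0.63 (SE 0.26, adjusted p = 0.127), both lower with V3.1 in 3 of 3 mice. *Camp* had 0.68 (SE 0.27, adjusted p = 0.114). With the mouse as a block, *Mmp9* (−1.09, adjusted p = 0.000596) and *Mmp8* (−0.79, adjusted p = 0.00867) were called by edgeR. With microglia below 20 UMIs of *S100a8* and *S100a9* and no block, *Mmp8* turned to 0.03 (adjusted p = 0.978), so its direction rests on a few barcodes, and *Mmp9* had −0.18 (adjusted p = 0.815). Single barcodes held 34.6% and 50% of the *Mmp9* UMIs of microglia in the V3.0 libraries of mice 2 and 3. With the same limit edgeR called *Camp* (1.35, adjusted p = 0.0113) and *Ngp* (1.16, adjusted p = 0.0258). *Camp* and *Ngp* turned from 0.68 and 0.51 to −0.84 and −0.87 without an upper limit on these UMIs. The median over members was 0.15, and −0.00024 over all genes.

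For the inhibitors, none of the members was called in microglia, where 64 of 13188 genes were (0.485%, and 931 at an unadjusted p below 0.05 by edgeR). *Retnlg* had 50.8, 31.9 and 41.9 CPM in mice 1, 2 and 3, lowest in the inhibitor mouse as in neutrophils, at −0.53 (SE 0.12, edgeR adjusted p = 0.0400, under the fold threshold). *Mmp9* had −0.95 (adjusted p = 0.112) and *S100a8* −0.40 (adjusted p = 0.296). The specific granule transcripts went opposite ways in the 2 kits. *Ltf* had 1.03 with V3.0 (adjusted p = 1.62e-05) and −2.22 with V3.1 (adjusted p = 4.85e-14), and *Camp* 0.73 and −0.49. In the V3.0 library of mouse 2, single barcodes held 54.8% of the *Ngp*, 50.4% of the *Ltf* and 39.7% of the *Camp* UMIs of microglia, so these within-kit values rest on few barcodes. The median over members was −0.30, and −0.0055 over all genes.

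*Mmp8* stood out in monocytes, a class of 75 barcodes chosen by other markers. It had 84 UMIs, 140 CPM (Poisson interval 112 to 174), against 5.70 CPM in microglia, 4.14 CPM in border macrophages (1 UMI) and 11.4 CPM in T and NK cells (1 UMI). It was found in 35 of 75 monocytes (46.7%, exact 95% interval 35.1% to 58.6%; median 8368 UMIs), against 2.17% of border macrophages. By library it had 56.4, 114 and 212 CPM in the V3.0 libraries of mice 1, 2 and 3 and 147, 82.7 and 285 CPM in the V3.1 libraries, above microglia in all 6. *Lcn2* had 51.8 CPM there (35.2 to 73.6) against 24.1 in microglia, but its 31 UMIs came from 10 cells. *Camp*, *Ngp* and *Retnlg* had 21.7, 21.7 and 13.4 CPM in monocytes, below their microglial levels of 60.3, 53.3 and 41.0 CPM.

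Of all 1572651 UMIs of the 10 transcripts, neutrophils held 73.8% and microglia 4.46%. By library the neutrophil part was 69.8% to 86.3%, except with V3.0 in mouse 3, where it was 39.6%. Barcodes past the S100 limit with more than 3 microglial markers held 8.27%, and 32 of the 63 were in that one library. Between 20 and 299 UMIs of *S100a8* and *S100a9* lay 693 barcodes, 341 of them in that library too.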

How the data were processed

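Myeloid cells from 3 mice were profiled in 6 scRNA-seq libraries. The authors deposited UMI counts per gene and barcode made with Cell Ranger 5.0.0 on mm10 (GRCm38), without normalization. These deposited counts hold barcodes called as cells, so free RNA was not measured in empty droplets. The members and all lists were chosen with earlier results of these data known.

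Here, CPM are UMIs per 1000000 UMIs of a class and library. Microglia and the other marker classes were taken from barcodes in which 1000 to 4000 genes were detected, the total did not exceed 12000 UMIs and mitochondrial genes took no more than 15% of them, and neutrophils had no such filter. No doublet caller was run, and barcodes with more than 3 microglial markers were left out of the neutrophils. Thinned shares are expected values of a draw without replacement. Summed counts were compared with edgeR 4.0.16 (TMM, filterByExpr, quasi-likelihood test, Benjamini-Hochberg over all genes tested, R 4.3.3), and DESeq2 1.42.0 was an alternative, as were other normalizations, filters, cell rules and libraries left out. The scripts were tested on simulated data with known changes. All members were named. Of the other lists, those with the highest mean CPM in neutrophils (at most 4) and called genes were named, and genes in the comparison of ranges beyond these were chosen after their values were seen. As partners, the 5 genes with the highest correlation to each group were named.

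Both libraries of a mouse came from 1 animal, so the numbers pair the libraries. Same-mouse deviations correlated at 0.02, 0.16 and 0.06 in neutrophils and 0.41, 0.48 and 0.17 in microglia. The 3 mice are separate animals, the 2 kits of a mouse are not, and p-values for the kits measure the spread between libraries. Mouse 2 is the sole animal with inhibitors.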

Additional observations from a re-analysis of the deposited data

Results flagged for a closer look

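*Camp* in neutrophils was 35866 CPM in the V3.1 library of mouse 3, the highest of the 4 libraries without inhibitors and far from the other 3, which had 23357 to 25428 CPM. The share of barcodes passing the filter was 21.5% in the V3.0 library of mouse 3, far below the other 3 libraries without inhibitors. These 2 were found in 35 such tests, and chance flags about 1 in 20 groups. Outside the comparisons, 63 barcodes had at least 300 UMIs of *S100a8* and *S100a9* and more than 3 microglial markers, and in them *Camp* ran from 234 to 38367 CPM and *Retnlg* from 765 to 44762 CPM by library, with 32 of the 63 in the V3.0 library of mouse 3. Barcodes of no class with fewer than 300 UMIs of these 2 genes held 13.4% of all UMIs of the 10 transcripts. What these barcodes are was not tested.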

How the results depend on the processing

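In neutrophils, edgeR called 14 of 3304 genes for V3.1 against V3.0. DESeq2 called 8 of the 294 genes to which it gave an adjusted p. With edgeR a limit of 1000 UMIs of *S100a8* and *S100a9* gave 7, the filter on barcodes 5 and leaving out 1 mouse 5 to 19. With the mouse as a block 20 genes and 0 members were called in neutrophils, and 578 genes and 2 members in microglia, against 360 and 0 without it. Leaving out 1 mouse gave 153 to 421 calls and 1 to 2 members in microglia, with 12012 to 12118 genes tested. There, 3 members were called without the filter on low counts, beside 528 of 18798 genes. Without an upper limit on *S100a8* and *S100a9* 2 members were called, beside 356 of 12050 genes. With fewer than 20 of their UMIs 2 members were called, beside 361 of 12001 genes. Members turned sign in microglia for V3.1 against V3.0: without the upper limit *S100a8* had −0.71, *Camp* −0.84, *Ngp* −0.87 and *Ltf* −0.29, and from 500 genes *S100a8* had −0.64, *Camp* −0.0504 and *Ngp* −0.18. *Mmp8* had 0.0279 below 20 UMIs. Leaving out 1 mouse, *S100a8* ran from −0.21 to 0.61 and *Ltf* from −0.0929 to 1.45.

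For the inhibitors in neutrophils, 14 calls became 1 with DESeq2, 7 with the V3.1 libraries alone, 22 with the filter on barcodes and 9 with neutrophils chosen by *S100a8* and *S100a9* at 10% of UMIs, an alternative chosen after seeing the data. No member (0) was called with DESeq2, with the V3.0 libraries alone, with a limit of 100 UMIs or with the 10% rule. In microglia 64 calls became 15 with DESeq2, 102 with relative log expression size factors, 118 without the filter on low counts, 97 with V3.0 alone, 35 below 20 UMIs and 103 from 500 genes. Members called there were 1 with those size factors, 2 without the filter on low counts, 5 with V3.0 alone, 1 with V3.1 alone, 3 without the upper limit, 1 below 20 UMIs and 4 from 500 genes. Genes tested in these settings numbered 12289 to 13320, and 18798 without the filter on low counts. With V3.0 alone *Camp* had 0.73, *Ngp* 0.91, *Ltf* 1.03 and *Lcn2* 0.79, opposite in sign to both kits summed. With 1 DNC-NONE mouse left out, *Camp* ran from −0.73 to 0.46, *Ngp* from −0.49 to 0.44 and *Lcn2* from −0.45 to 0.42.

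The difference in neutrophil share was −0.201 points with a limit of 100 UMIs and −0.229 with the 10% rule. It was −0.808 over barcodes that passed the filter or were neutrophils, and 0.379 with only neutrophils that passed the filter. The sign flips within mice gave p = 0.25, the smallest possible in that exact test. The microglial level as a percent of the neutrophil level was 0.341 without the upper limit and 0.255 from 500 genes, against 0.192. Each is the median over members of their medians over libraries. Member folds had the opposite sign in 14 of 140 values for the kits in neutrophils, 23 of 130 in microglia, and 12 of 110 and 6 of 100 for the inhibitors. The cause was not tested where a value turned or moved. In microglia *Mmp9* had 16 to 90 UMIs per library and *Mmp8* 21 to 104, and neutrophils numbered 55 to 95 cells per library.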
